A study of Mus musculus with 4 samples.

Results

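Regulatory T (Treg) cells and T helper 2 (Th2) cells sorted from the lungs of mice with allergic inflammation differed in chromatin accessibility at 5300 regions, and all of these regions are described here. Treg cells were the more accessible population at 1759 of them (33.2%) and Th2 cells at 3541 (66.8%). The regions are every row of the authors' deposited table for this pair of populations, 1 of 6 such tables, which together covered 52537 separate regions once overlapping ones were merged. Accessibility was measured by ATAC-seq, in which a transposase cuts and tags open DNA, in mice sensitised to and challenged through the nose with house dust mite extract, an allergen used to model asthma. Both populations were collected at day 15 from lung with airways. Th2 cells were gated as CD44+ ST2+ CD30L+ and Treg cells as CD25hi CD30L-. The tables used beside this one held other effector cells (CD44+ ST2- CD30L+), also from lung with airways, and naive cells (CD44lo CD62Lhi) from the mediastinal lymph node, so folds against naive cells also compare tissues. No strain, sex or genotype is given in the sources used here.

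The labels' protocols state 3 biological replicates, of 1000 cells each, for every population. The tables hold a position and 1 value for each region, read as a log2 fold, positive where the first-named population was higher; here that is Treg minus Th2. Every fold below is the authors' own value from these deposited tables. They hold no replicate value, p-value or read count, so no fold has an error, depth is unknown, and no difference below could be set against the spread between replicates. A gene without a listed region was not called different in this table; it may still be open in both populations. A region took the name of the protein-coding gene around its midpoint or, failing that, of the closest gene up to 100 kb away, which does not show that it acts on that gene. The genes of the gates, Il2ra (CD25), Il1rl1 (ST2), Tnfsf8 (CD30L) and Cd44, were used to sort the cells and are no findings.

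Treg cells restrain other immune cells and depend on the transcription factor Foxp3, the surface molecule Ctla4 and a high-affinity interleukin-2 receptor. Th2 cells drive allergic inflammation through interleukins 4, 5 and 13 and depend on the transcription factor Gata3. Both are CD4 T cells, and in inflamed lung both can carry Gata3 and the interleukin-33 receptor ST2, so a contrast of the pair removes much of what lung T cells share. Open regions outside promoters are often enhancers, and DNA-binding factors such as AP-1, RUNX, ETS and GATA proteins bind many of them.

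The promoters below are those of genes on which the results turn, chosen after their folds were seen. Hopx, Tnfrsf8 and Tbx21 had a region higher in Treg cells over the promoter, and Plac8, Itgax and Fcer1g a region higher in Th2 cells. Each line gives the 250 bases before the annotated start site, 5' to 3' on the strand of the gene, from the RefSeq promoter table of build GRCm38.p6. Capitals mark every match on either strand to the 6 motifs AP-1, ETS, PU.1-type ETS, RUNX, GATA and C/EBP, whose letters are given with the motif shares later.
Hopx: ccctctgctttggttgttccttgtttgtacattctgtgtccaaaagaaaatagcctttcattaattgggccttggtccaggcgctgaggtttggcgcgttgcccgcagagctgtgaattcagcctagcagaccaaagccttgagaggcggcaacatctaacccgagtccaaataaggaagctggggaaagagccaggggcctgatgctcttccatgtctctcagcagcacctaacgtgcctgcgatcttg
Tnfrsf8: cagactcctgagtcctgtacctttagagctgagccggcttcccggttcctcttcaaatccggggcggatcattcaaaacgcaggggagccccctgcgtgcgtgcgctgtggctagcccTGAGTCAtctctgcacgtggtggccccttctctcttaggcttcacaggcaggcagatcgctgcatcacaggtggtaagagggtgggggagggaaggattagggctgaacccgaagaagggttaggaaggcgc
Tbx21: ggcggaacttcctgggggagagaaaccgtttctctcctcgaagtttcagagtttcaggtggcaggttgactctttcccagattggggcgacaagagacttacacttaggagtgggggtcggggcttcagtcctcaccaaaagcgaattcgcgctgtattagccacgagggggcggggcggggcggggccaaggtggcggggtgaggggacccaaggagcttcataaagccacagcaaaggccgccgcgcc
Plac8: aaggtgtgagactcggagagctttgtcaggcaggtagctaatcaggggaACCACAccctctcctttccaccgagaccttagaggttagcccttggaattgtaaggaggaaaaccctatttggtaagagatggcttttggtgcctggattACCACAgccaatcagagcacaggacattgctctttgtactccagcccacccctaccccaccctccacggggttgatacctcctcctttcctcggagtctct
Itgax: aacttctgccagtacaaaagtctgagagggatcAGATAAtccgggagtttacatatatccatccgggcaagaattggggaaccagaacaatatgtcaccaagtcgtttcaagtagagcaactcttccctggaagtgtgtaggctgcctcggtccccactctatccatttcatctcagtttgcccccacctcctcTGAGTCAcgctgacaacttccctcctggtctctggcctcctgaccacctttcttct
Fcer1g: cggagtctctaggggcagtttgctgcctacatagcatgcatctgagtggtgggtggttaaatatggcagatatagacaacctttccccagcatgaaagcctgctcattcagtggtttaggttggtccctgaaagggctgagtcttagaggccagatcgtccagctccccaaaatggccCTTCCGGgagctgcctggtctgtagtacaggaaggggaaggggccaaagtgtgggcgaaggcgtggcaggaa
On the minus strand lay Hopx (chr5:77115124-77115373), Tnfrsf8 (chr4:145315165-145315414), Tbx21 (chr11:97115332-97115581), Plac8 (chr5:100572206-100572455) and Fcer1g (chr1:171234350-171234599), and on the plus strand Itgax (chr7:128129300-128129549). The Tnfrsf8 promoter held an AP-1 match 132 bases before the start. The Plac8 promoter held 2 RUNX matches, 201 and 101 bases before the start. The Itgax promoter held a GATA match at 217 bases and an AP-1 match at 56 bases before the start, and the Fcer1g promoter an ETS match at 72 bases. Hopx and Tbx21 held none of the 6 in these bases, which says nothing of factors that bind elsewhere.

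The regions higher in Treg cells were fewer but wider than those higher in Th2 cells. Their median width was 491 bases (quartiles 319.5 and 709.5) against 318 bases (201 and 517). The shortest width in the table, 150 bases, was found at 75 regions higher in Treg cells (4.26%) and at 561 higher in Th2 cells (15.8%). The absolute log2 folds were alike in size. They ran from 3.95 to 9.36 with a median of 5.57 (quartiles 5.06 and 6.335) on the Treg side. On the Th2 side they ran from 4.02 to 11.32 with a median of 5.50 (quartiles 5.01 and 6.18). A log2 fold of at least 7 was reached by 206 regions higher in Treg cells (11.7%) and 244 higher in Th2 cells (6.89%). Wider regions had larger folds in both directions, with medians of 5.02 (Treg) and 5.23 (Th2) up to 200 bases and 6.19 and 6.195 above 1000 bases. The smallest listed folds were 3.95 at Tcp11l2 on the Treg side and -4.02 at Gfi1, a transcriptional repressor, on the Th2 side. No region with an absolute fold below these was in the table, and the threshold the authors applied was not stated in the labels.

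**Figure D1:**
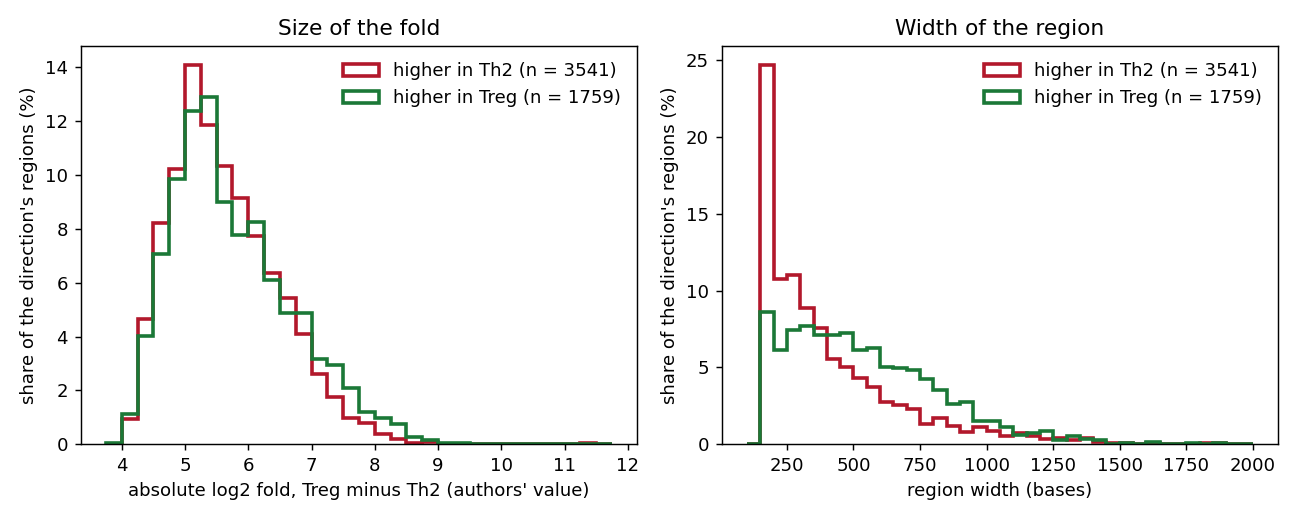
Left, absolute log2 fold between Treg and Th2 cells; right, region width in bases; both y axes give the share (%) of the regions of each direction (green, 1759 higher in Treg cells; red, 3541 higher in Th2 cells). The fold curves nearly coincide, with medians of 5.57 and 5.50, while the width curve of the Th2 side is shifted to short regions, 15.8% of them 150 bases wide.

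At most listed regions both lower populations stood at a fixed distance from each other. Every one of the 1759 regions higher in Treg cells also had a fold over other effector cells, and every one of the 3541 higher in Th2 cells did too. For Treg cells, the fold over Th2 minus the fold over other effector cells was between 0.16 and 0.20 at 1326 regions (75.4%). It lay below this band at the remaining 433, down to -4.29, and above it at 0. For Th2 cells, the fold over Treg minus the fold over other effector cells was between -0.02 and 0.02 at 2659 regions (75.1%). It lay below the band at the remaining 882, down to -3.99, and above it at 0. Inside the bands the fold itself ran from 4.33 to 9.36 on the Treg side and from 4.28 to 11.32 on the Th2 side. At about 3 in 4 listed regions the size of the fold therefore followed the signal of the higher population alone, while the lower populations differed by a constant. The cause of the constant was not tested, and the tables give no read counts behind it. These folds share populations and are given side by side, not as separate support.

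**Figure D2:**
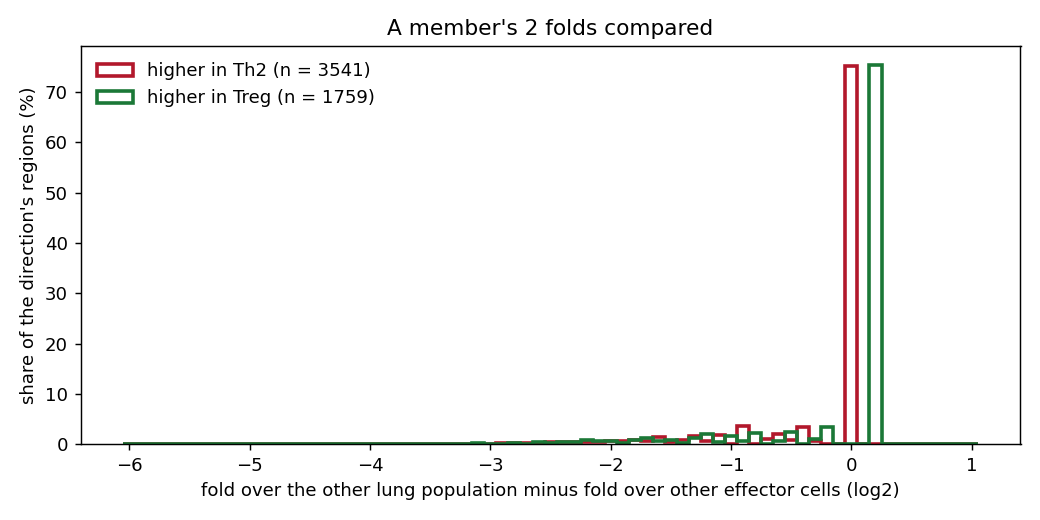
The x axis gives, for each region, its log2 fold over the other lung population minus its log2 fold over other effector cells, and the y axis the share (%) of the direction's regions (green, Treg; red, Th2). Both distributions have a single tall bar, at 0.18 for Treg and 0 for Th2, and a tail to negative values only.

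Most listed regions lay away from gene ends. Midpoints fell within 1 kb of a gene end at 165 of 1757 placed regions higher in Treg cells (9.39%, exact 95% binomial interval 8.07% to 10.9%). The share was 402 of 3540 (11.4%, 10.3% to 12.4%) for regions higher in Th2 cells. Regions overlapped a promoter window, the 250 bases before to 50 after a start site, at 91 of 1705 (5.34%, 4.32% to 6.51%) on the Treg side and 274 of 3443 (7.96%, 7.08% to 8.91%) on the Th2 side. Both shares were below that of all merged regions of the 6 tables, 16.1%. The intervals cover counting error over regions only, and regions of a locus are not independent. Midpoints inside a gene made up 55.3% and 55.0%, and no gene lay within 100 kb of 119 and 239 regions. The median gap between neighbours was 394 kb for the 1759 regions higher in Treg cells and 163 kb for the 3541 higher in Th2 cells. Fewer regions leave wider gaps by number alone. Of 761 neighbouring pairs of listed regions within 10 kb, 694 (91.2%) pointed the same way. With 66.8% of all listed regions higher in Th2 cells, many pairs would do so at any distance. No share for pairs farther apart was computed. The Treg share of a chromosome's listed regions ran from 19.6% on chromosome 19 to 44.3% on chromosome 12.

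Of 21887 protein-coding genes, 1228 (5.61%) had a region higher in Treg cells and 2228 (10.2%) a region higher in Th2 cells. Counted by region, 3.34% of all merged regions of the 6 tables were higher in Treg and 6.72% higher in Th2 cells. These shares are the background for the gene groups below. Gene groups differ in how many merged regions their genes have, so the share of a group's merged regions is given beside its gene count. In all, 3167 genes had a listed region: 939 only higher in Treg cells, 1939 only higher in Th2 cells, and 289 in both directions.

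**Figure D3:**
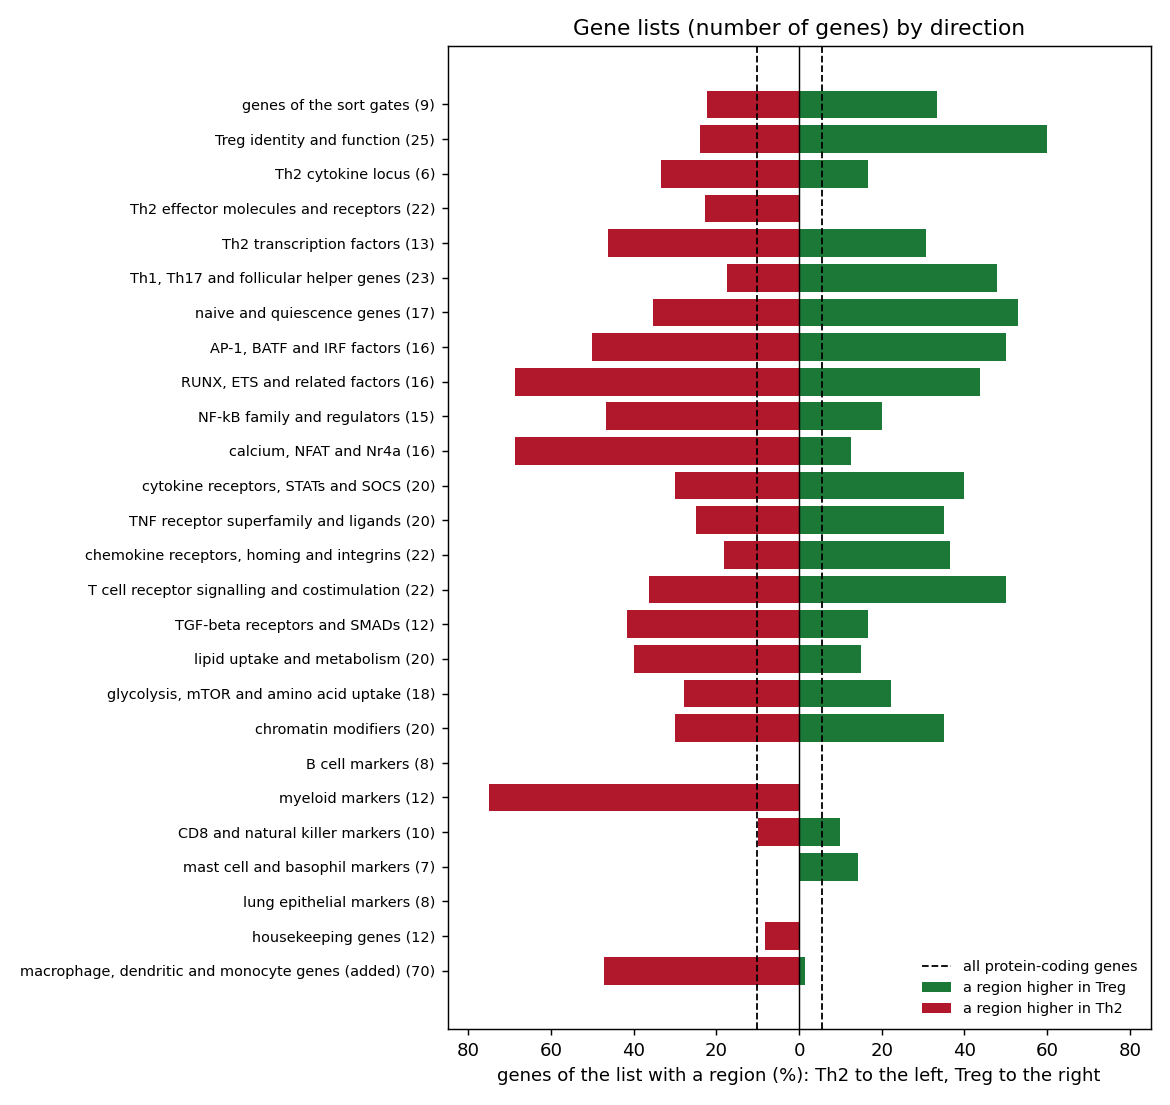
Bars give the share (%) of each list's genes with a listed region, to the right for regions higher in Treg cells (green) and to the left for Th2 cells (red); dashed lines mark the shares over all protein-coding genes, 5.61% and 10.2%. The Treg identity list reaches furthest to the right at 60.0%, and the myeloid marker list furthest to the left at 75%.

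Genes of Treg identity and function were open in Treg cells. Of 25 such genes, 15 had regions higher in Treg cells, 40 regions in all with a median fold of 6.175, and 6 had regions higher in Th2 cells, 7 in all. This was 15.5% and 2.71% of the 258 merged regions of the list. The gate gene Il2ra is counted here, and without it, a setting added after the data were seen, 14 of 24 genes had 37 regions higher in Treg cells. Foxp3, the lineage-defining transcription factor on chromosome X, had 3 regions inside the gene, with folds of 5.65, 5.44 and 4.37. The first, at chrX:7583946-7584606, lay 3.79 kb past the start. At this region Treg cells were also higher than other effector cells, at -8.30 for other effector minus Treg, and than naive cells, at -8.47 for naive minus Treg. Th2 cells thus lay between Treg cells and the 2 other populations there. Ikzf2, which encodes Helios, a zinc-finger factor of Treg cells, had 7 regions inside the gene between chr1:69544203-69544614 and chr1:69683056-69683318, with folds of 8.46, 6.50, 5.02, 5.27, 4.84, 4.36 and 7.26. The largest fold of the whole Treg side, 9.36, lay on the same stretch of chromosome 1 at chr1:69768467-69769483, outside genes, and was assigned to Spag16, a sperm flagellum gene with the nearest gene end. Ikzf4, which encodes Eos, a related factor, had 1 region with a fold of 8.76 at chr10:128636543-128637489.

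Other genes of the list lay at varied distances from their regions. Ctla4, an inhibitory receptor for the ligands of Cd28, had 4 regions before the start site and none inside the gene. They lay in pairs, at -33.7 and -33.0 kb (folds 8.25 and 5.23) and at -21.8 and -20.0 kb (8.15 and 5.31). The stronger member of each pair was wider, with 8.25 at chr1:60874816-60875842. Icos, the neighbouring co-stimulatory receptor gene, had 4 regions with folds of 6.29, 5.76, 6.64 and 7.52. All 4 were listed against naive cells as well, at -6.28, -5.74, -6.63 and -7.51 for naive minus Treg. Itgb8, an integrin subunit that helps activate transforming growth factor beta, had 3 regions higher in Treg cells (7.83, 6.15 and 5.99) and 1 higher in Th2 cells (-5.28). Izumo1r, the folate receptor 4 gene used as a Treg marker, had 3 (5.32, 5.32 and 6.49). Lrrc32, which encodes GARP, a docking protein for latent transforming growth factor beta, had 6.20 and 6.56 in one direction and -4.92 in the other. Nrp1 was mixed too, at 4.84 and 5.22 against -6.55. Prdm1, which encodes the factor Blimp-1, had 7.33 and 5.90 against -5.34, and Itgae (CD103) had 6.51 and Klrg1 4.98.

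Not all of the list pointed to Treg cells. Entpd1, which encodes the ectoenzyme CD39, had 2 regions and both were higher in Th2 cells (-5.98 and -5.89). Tnfrsf18, Tnfrsf4, Tigit, Lag3, Nt5e, Il10, Ebi3, Gpr83 and Capg had no listed region. Gata3, the Th2 factor, had 1 region, and it was higher in Treg cells with a fold of 6.17, inside the gene at chr2:9875945-9876210. Other effector minus Treg was -6.69 at the same region.

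**Figure D4:**
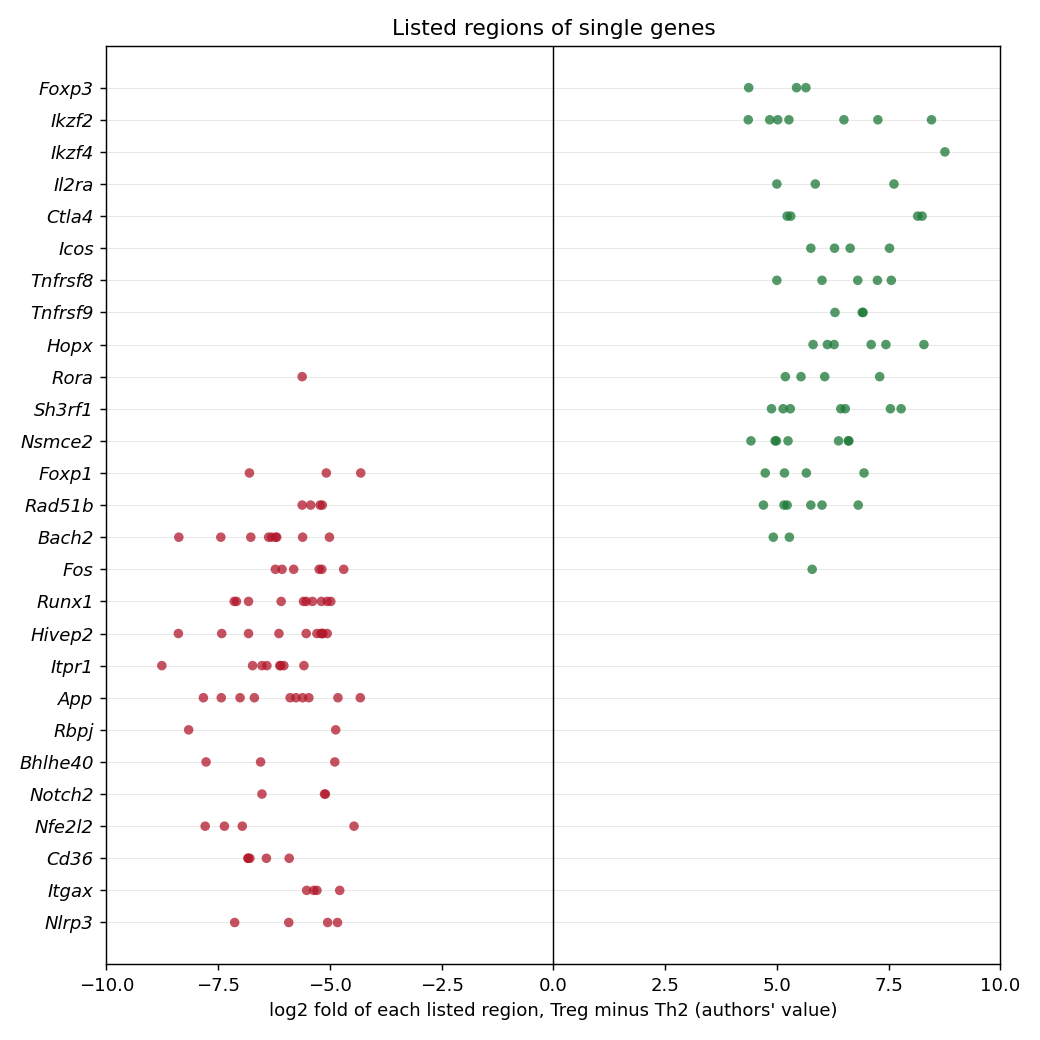
Each point is 1 listed region, placed by its log2 fold, Treg minus Th2 (x axis), in the row of its assigned gene; green points were higher in Treg and red points higher in Th2 cells. Ikzf2, Hopx and Tnfrsf8 have points on the Treg side only, Runx1, Hivep2 and App on the Th2 side only, and Foxp1, Rad51b and Bach2 on both.

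Of 20 genes of the tumour necrosis factor superfamily, 7 had regions higher in Treg cells (14 regions, median fold 6.255; 11.4% of the list's 123 merged regions). Regions higher in Th2 cells belonged to 5 genes (8 regions, 6.50%, near the background of 6.72%). Without the gate gene Tnfsf8 they were 5 regions of 4 genes, and with assignment within 10 kb the list had 3. Tnfrsf8, which encodes CD30, had 5 regions with folds of 5.0, 6.01, 7.56, 6.81 and 7.25. The strongest, at chr4:145314975-145315434, covered the promoter printed above, 0.04 kb before the start. Tnfrsf9 (4-1BB) had 6.30, 6.91 and 6.93, Tnfrsf14 had 5.75 and 5.78, and Tnfrsf13b had 6.21 over its promoter. Tnfrsf1b, a tumour necrosis factor receptor, had 7.04 and -6.20, and Cd27 had 5.77 over its promoter and -5.79 elsewhere. Among the ligands, Tnfsf11 (RANKL) had -5.52 and -6.96 at -35.2 and -48.9 kb. The ligand of CD30, Tnfsf8, had -4.94, -5.23 and -6.18, but its protein was part of both gates, so these are no finding. Fasl, a death ligand, had 1 region each way (5.41 and -4.57).

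**Figure D5:**
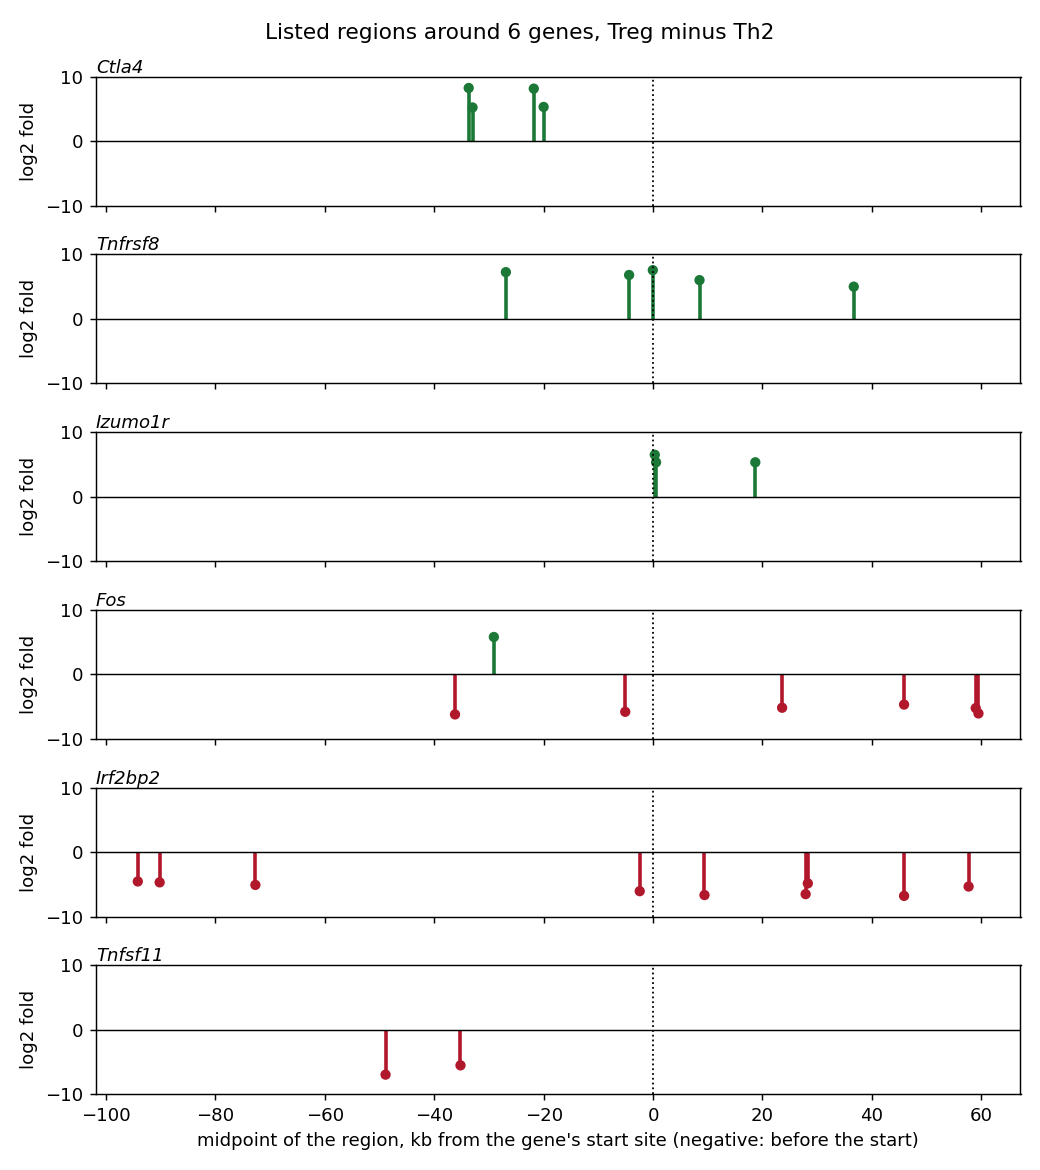
Each stem is 1 listed region, placed by the distance of its midpoint from the start site of the gene in kb (x axis; negative before the start), and its height is the log2 fold, Treg minus Th2 (green up, higher in Treg; red down, higher in Th2). The Ctla4 regions all lie before the start, a Tnfrsf8 region lies on it, and Tnfsf11 has 2 regions higher in Th2 cells at -35.2 and -48.9 kb.

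Genes of other helper lineages lay mostly on the Treg side. Of 23 genes of Th1, Th17 and follicular helper cells, 11 had regions higher in Treg cells (24 regions, median fold 5.59; 13.2% of 182 merged regions), and 4 had 1 region each higher in Th2 cells (2.20%). Hopx, a homeodomain protein, had 6 regions, all higher in Treg cells, with folds of 6.13, 8.29, 7.11, 6.28, 5.81 and 7.44. The strongest, at chr5:77114423-77115319, overlapped the promoter printed above, and 4 others ran from -9.93 to -29.7 kb. Rora, a nuclear receptor of Th17 cells and of type 2 innate cells, had 4 regions higher in Treg cells (6.07, 5.19, 5.54 and 7.30) and 1 higher in Th2 cells (-5.62), spread inside the gene. The Th17 genes Il23r (4.43, over the promoter) and Ccr6 (5.31 and 5.31) were higher in Treg cells. So were Cxcr5, a follicular homing receptor (5.79, 5.20 and 5.55), Tox (5.63 and 5.27), Stat4 (4.67) and Ifng (4.42 and 4.41, at 20.5 and 28.2 kb). Tbx21, the master factor of Th1 cells, was split: the region over its promoter had 5.48 and one inside the gene had -5.16. Bcl6 was also split (5.93 and -4.67). Cxcr3, Il17a, Il17f, Il21 and Pdcd1 had no region.

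Some of the regions higher in Treg cells were open in naive cells as well. Ccr7, a lymph node homing receptor, had 4.41, with naive minus Th2 at 6.22 and naive minus other effector at 8.35. Lef1, a factor of naive and memory T cells, had 5.26, with 7.12 and 7.89. Foxo1, which maintains quiescence, had 6.09 and 7.15, and naive minus Th2 was 8.59 at the latter. Of 17 genes of the naive and quiescent state, 9 had 15 regions higher in Treg cells (3.49% of 430 merged regions) and 6 had 17 regions higher in Th2 cells (3.95%). The background shares were 3.34% and 6.72%. On the Th2 side were Bcl2, a survival factor (-5.83 and -6.47), Tcf7 (-5.13) and, above all, Bach2.

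Over the whole Treg side, 636 of 1759 regions were also listed against naive cells, all 636 higher in Treg cells, with a median of -6.10 for naive minus Treg. A further comparison, naive minus Th2, listed 336 of them, 335 higher in naive cells (median 6.80). On the Th2 side, 1267 of 3541 regions were listed against naive cells, all higher in Th2 cells (median -6.06), and naive minus Treg listed 141, of which 140 were higher in naive cells. These tables share Treg or Th2 cells with the present one. The table of naive minus other effector cells shares no population with it, and it lists only regions higher in naive cells. It overlapped 391 of the 1759 regions higher in Treg cells (22.2% of these, 2.18% of its own 17700 regions). The overlap on the Th2 side was 259 of 3541 (7.31%, and 1.44% of its own). Where at least 50% of both regions had to overlap, it was 288 (16.4%) and 156 (4.41%). Of all merged regions, 33.7% were in that table.

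Markers of myeloid cells were part of the Th2 side and are given before the other groups. Of 12 macrophage, monocyte and granulocyte markers, 9 had regions higher in Th2 cells, 12 regions in all with a median absolute fold of 5.315, and 0 had a region higher in Treg cells. This was 18.8% of the list's 64 merged regions. Itgax, which encodes CD11c, had 4 regions (-4.78, -5.29, -5.52 and -5.36), of which -5.29 and -5.52 lay over the promoter printed above, the latter over its AP-1 match. Single regions were listed for Adgre1, a macrophage surface marker (-7.17), Csf1r, the macrophage growth factor receptor (-6.56), Cebpb (-6.23), Siglecf (-5.34), Fcgr3 (-5.05), Cd68 (-5.01), Cd14 (-4.69) and Cebpa (-4.63). Lyz2, Itgam and Spi1 had none. Genes of this list were listed in the other tables too, which differ in length. Other effector minus Th2, with 28175 regions in all, listed 50 of 11 genes, all lower in other effector cells (median -5.365). Other effector minus Treg, with 24765, listed 20 of 6 genes, again all lower in other effector cells (median -5.625). Naive minus other effector, with 17700, listed 16 regions, all higher in naive cells. Naive minus Th2, with 9916, listed 12, of which 11 were higher in Th2 cells. Naive minus Treg, with 6516, listed 7, of which 4 were higher in Treg cells. A longer list of 70 myeloid genes, drawn up after these data were examined, had 53 regions over 33 genes higher in Th2 cells (20.2% of 258 merged regions). One gene of the 70 also had a region higher in Treg cells, Cd86 (5.03). The longer list was chosen with these values known, so its count is a description. The inflammasome gene Nlrp3 had 4 regions, from -4.83 to -7.13. Sirpa, an inhibitory receptor of phagocytes, had -4.34, -5.37, -7.86 and -7.98. Il1b, the interleukin-1 beta gene, had 4 regions from -4.54 to -6.22. Tlr4, the receptor for endotoxin, had -8.07 and -5.31, and Tyrobp, a signalling adaptor of myeloid and natural killer cells, had -6.31. The complement gene C1qa had -6.88 and the Fc receptor chain gene Fcer1g had -5.85, over its promoter printed above.

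Markers of other cell types had few listed regions, and also few merged regions. Of 8 B cell markers (29 merged regions) and 8 epithelial markers (10 merged regions), 0 had a listed region. At the background shares of 3.34% and 6.72%, so few merged regions would hold few listed ones in any case. Of 10 CD8 and natural killer markers, Cd8b1 had 5.16 and Klrk1 -4.44 (3.45% of 29 merged regions each way). Of 7 mast cell and basophil markers, Kit had 5.33 (1 of 5 merged regions). Without the regions of genes on either myeloid list, 3476 of 3541 regions higher in Th2 cells and 1758 of 1759 higher in Treg cells remained. The part of myeloid cells or of myeloid genes in the groups described below was not tested.

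Promoters of well-known T cell and myeloid genes were among the listed regions. A region higher in Treg cells lay over 108 of 21263 promoter windows of protein-coding genes (0.508%), those of 95 genes, and a region higher in Th2 cells over 302 (1.42%), those of 278 genes. The genes named here were chosen after their values were seen. On the Treg side, beside Hopx and Tnfrsf8, were Pglyrp1 (6.73), P2ry10 (6.54), a lipid receptor of lymphocytes, Itgb8 (6.15), Lpar2 (6.04), Ms4a4b (5.29), Prkcz (6.68) and Txk (4.64), a kinase of T cells. On the Th2 side were Il2, the interleukin-2 gene, at -6.77, the chemokine genes Ccl1 at -5.27 and Ccl3 at -6.88, and Nr4a2, an orphan nuclear receptor, at -6.12. The same side held genes known from phagocytes: Clec7a, the receptor for fungal glucans (-5.12), Cd33 (-5.54), Nod2 (-5.47), Mertk (-6.57), C3ar1 (-6.54), Trem1 (-5.58), Spp1 (-5.45) and Plek (-7.39).

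The Th2 cytokine locus and most classical Th2 genes had few regions in this table by number, which does not show that they were alike. Of 6 genes of the locus, 2 had 2 regions higher in Th2 cells (6.45% of 31 merged regions). One region of 1 gene was higher in Treg cells (3.23%). Both shares were near the background of 6.72% and 3.34%. Il13 had 1 region higher in Th2 cells, at chr11:53626744-53627138 with a fold of -4.81, against -6.99 for other effector minus Th2 and -7.16 for naive minus Th2. Il4, Il5, Rad50, whose introns hold the control region of the locus, and Kif3a had none. In the table of naive minus Th2, Il4 had 1 region (-7.11), Il5 2 (to -6.56), Il13 5 and Rad50 2 (to -6.77), all higher in Th2 cells. In the table of naive minus Treg, Il4, Il5 and Il13 had 0 and Rad50 had 1. Other effector minus Th2 listed 1, 4, 6 and 4 regions of Il4, Il5, Il13 and Rad50, and other effector minus Treg 0, 1, 1 and 1. The difference between such counts was not tested. Il1rl1, a gate gene, had 11 regions in the table of naive minus Th2 and 9 in that of naive minus Treg, all lower in naive cells, and 0 between Th2 and Treg cells. Irf1, at the end of the locus, had 1 region each way (4.76 and -4.76). The defining markers of Treg cells matched the sort label, Foxp3, Ikzf2 and Ctla4 being higher in Treg cells at all 14 of their regions. This also bears on how the sign of the fold was read, so it is no independent evidence of direction. Of the defining Th2 markers Il13 alone was higher in Th2 cells, and Gata3 pointed the other way.

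A second set of 22 Th2 effector genes had 8 regions over 5 genes higher in Th2 cells (7.02% of 114 merged regions) and 0 higher in Treg cells. By merged regions, the share lay near the background of 6.72%, and with assignment within 10 kb the count was 3. Plac8, a small cysteine-rich protein found in lung Th2 cells, had 2 regions, one over the promoter printed above (-4.77) and a wide one at -36.0 kb (-7.33). Igfbp7, an insulin-like growth factor binding protein, had -5.53 over its start at chr5:77407243-77408271. Il6, the interleukin-6 gene, had -5.09 and -5.86 at -87.4 and -64.7 kb, and Calca, which encodes calcitonin gene-related peptide, had -4.49. Tnfsf11 is described above. Ccr8, Ccr4, Ptgdr2, Il17rb, Areg, Il9, Il3, Csf2, Cysltr1, Alox5 and Hpgds were among the 17 genes with no region.

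Of 13 transcription factors and signal proteins of Th2 cells, 6 had regions higher in Th2 cells (12 regions, median absolute fold 5.11; 8.51% of 141 merged regions) and 4 had 5 higher in Treg cells (3.55%), near the background shares of 6.72% and 3.34%. Bhlhe40, a helix-loop-helix repressor, had -7.77, -4.89 and -6.55. Rbpj, through which Notch acts on DNA, had -8.16 and -4.87, at -80.7 and -109.0 kb, and its receptor gene Notch2 had -5.10, -6.52 and -5.12. Pparg, a nuclear receptor for fatty acids, had 1 short region of 150 bases (-5.34), and Maf had -4.46. Nfil3 was mixed (-4.95, -5.02 and 6.92). Ets1, an ETS factor, had only regions higher in Treg cells (6.92 and 5.95), and Stat5b, which carries the interleukin-2 signal, had 5.40. Stat6, Stat5a, Notch1 and Junb had none.

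Of 16 RUNX, ETS and HIVEP factors, 11 had regions higher in Th2 cells, 43 in all with a median absolute fold of 5.58 (13.1% of 327 merged regions), and 7 had 13 higher in Treg cells (3.98%). Runx1, a Runt factor that shapes T cell development, had 10 regions, all higher in Th2 cells, from -4.98 to -7.14, and Runx3 had 4 (-6.15, -7.02, -4.56 and -5.70). Runx2 was mixed at -4.65, -7.19 and 6.47. Hivep2, a zinc-finger protein that binds sites like those of NF-kB, also had 10 regions, all higher in Th2 cells, from -5.06 to -8.39. Hivep3 was split by position relative to the nearest listed start site. Before that site lay 4.67, outside the gene, and 7.60 and 5.07, both inside the gene. Past it, at 152.0 and 239.0 kb and also inside the gene, lay -8.73 and -6.38. Within the ETS family, Ets1, Ets2 (8.02 and 4.84) and Fli1 (5.32 and 8.02) had Treg-side regions only, whereas Elk3 had 5 on the Th2 side (-4.70 to -6.22). Etv6 had 5 on the Th2 side and 2 on the Treg side. Zeb1 had 8.17 and -6.42, and Zeb2 -5.50.

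Genes of AP-1 and IRF factors stood on both sides. Of 16 such genes, 8 had 10 regions higher in Treg cells (6.58% of 152 merged regions) and 8 had 19 higher in Th2 cells (12.5%). With assignment within 10 kb these became 7 and 4, so the order of the 2 sides turned. Fos, an early response gene, had 6 regions higher in Th2 cells between -36.2 and 59.5 kb of the start (-4.69 to -6.22) and 1 higher in Treg cells at -29.1 kb (5.79). Fosb (-6.77) and Atf3 (-5.53) pointed to Th2 cells, and Fosl1 (4.83), Jun (5.77), Jund (5.58 and 4.68) and Batf (4.97) to Treg cells. Irf4, a factor that both lineages need, had 5.60 and 4.98 against -5.61. Batf3 had 5.39 against -5.26 and -6.72. Nfe2l2, which encodes the oxidative stress factor Nrf2, had 4 regions higher in Th2 cells (-6.96, -4.46, -7.36 and -7.79), and Bach1, its competitor at DNA, had -4.50 and -7.87. Of 15 genes of the NF-kB list, 7 had 9 regions higher in Th2 cells (6.0% of 150 merged regions) and 3 had 4 higher in Treg cells (2.67%), both near the background shares of 6.72% and 3.34%. Among them were Bcl3 (-6.96 and -5.94), Nfkb1 (-5.50 and -6.01) and Nfkbia (-6.66) on the Th2 side and Tnip3 (5.40 and 4.72) on the Treg side.

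Genes of calcium and NFAT signalling were open in Th2 cells. Of 16 genes, 11 had 21 regions higher in Th2 cells (median absolute fold 6.12; 11.6% of 181 merged regions) and 2 had 1 each higher in Treg cells (1.10%). Itpr1, the channel that releases calcium from internal stores, had 8 regions, all higher in Th2 cells, from -5.58 to -8.76, the latter among the largest of the Th2 side. The store-operated channel gene Orai1 had -6.67, and the sensors Stim1 and Stim2 had -5.91 and -4.40. Nfatc1, a factor that calcium activates, had -6.16, -6.90 and -6.90 against 5.24, and Nfatc2 had -4.78. Rcan1, an inhibitor of calcineurin, had -7.20 and -5.88. The early response factors Egr2 and Egr3 had -6.17 and -5.60. Nr4a1, Nr4a3 and Egr1 had none. Myeloid cells use several of these genes as well, and the myeloid markers above moved in the same direction.

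Cytokine receptor genes stood on both sides. Of 20 receptors and suppressors of cytokine signalling, 8 had 14 regions higher in Treg cells (9.21% of 152 merged regions). On the Th2 side 6 had 11 regions, 10 merged regions (6.58%, near the background of 6.72%). Il2rb, the beta chain of the interleukin-2 receptor, had 7.09 and 7.91. Ifngr1, the ligand-binding chain of the interferon gamma receptor, had 8.55 and 5.01, whereas its partner Ifngr2 had -6.79. Il6ra (5.42 and 6.08) and Il21r (4.45, 6.16 and 5.53) were higher in Treg cells. Il6st, the shared chain gp130, had 5.22 and 5.69 and, over its promoter, -7.18. The interleukin-10 receptor genes Il10ra (-6.47) and Il10rb (-6.29, -6.0 and 4.64) leaned to Th2 cells, as did Ifnar1 (-6.85, -6.96 and -6.02, with 5.30 the other way). Socs3, a feedback inhibitor, had -5.78, -6.70 and -6.96 against 5.09.

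Antigen receptor signalling genes had regions in both directions. Of 22 genes, 11 had 16 regions higher in Treg cells (5.05% of 317 merged regions, background 3.34%). On the Th2 side 8 had 10 regions, 9 merged regions (2.84%, below the background of 6.72%). Protein kinase C isoforms went opposite ways. Prkch, the eta isoform, had 7.15, 6.04 and 7.55, and Prkcq, the theta isoform, -6.39 and -6.23. Ptpn22, a phosphatase that limits receptor signals, had 7.61, Cd28 had 7.19 and Malt1, a scaffold and protease upstream of NF-kB, had 5.41 and 5.92. Fyn (-5.46), Vav1 (-5.69) and Themis (-5.86) were higher in Th2 cells. Lck, Zap70, Lat and Lcp2 had no region. For migration, Itga2, an integrin chain that binds collagen, had 6.67 and 7.20 against -4.18, and Ccr1 (6.40), Gpr183 (5.73), Gpr15 (5.65), Ccr9 (5.09) and Cxcr4 (4.60) had single Treg-side regions. Cd69, a tissue retention marker, had 1 region higher in Th2 cells (-5.43). Together, 8 of 22 homing and integrin genes had 9 regions on the Treg side (5.33% of 169 merged regions, background 3.34%). On the Th2 side 4 had 5 (2.96%, below the background of 6.72%).

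Transforming growth factor beta genes had few regions in either direction. Of 12 genes, 5 had 7 regions higher in Th2 cells (4.76% of 147 merged regions, below the background of 6.72%). Another count, 2 genes with 1 region each, was higher in Treg cells (1.36%, below the background of 3.34%). The ligand gene Tgfb1 had -7.08 and the receptor gene Tgfbr2 had -5.76, -5.66 and -4.43. The inhibitor Smad7 had 7.30, and Ski, a co-repressor of SMAD proteins, had 7.32 and -4.68.

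Genes of lipid handling leaned to Th2 cells. Of 20 genes, 8 had 15 regions higher in Th2 cells (median absolute fold 6.02; 12.7% of 118 merged regions) and 3 had 4 higher in Treg cells (3.39%). Cd36, which takes up fatty acids and oxidised lipoprotein, had 5 regions with folds of -5.91, -6.79, -6.42, -6.83 and -6.83. The first, at chr5:17835780-17836084, lay over its promoter, and 1 of the 5 was also listed for naive minus Th2 (-5.43). Acsl1, which activates fatty acids, had -5.13, -5.21 and -5.65, Nr1h3, an oxysterol receptor, -7.49, Abca1, a cholesterol exporter, -6.52, Cpt1a -6.02, Fabp5 -5.98 and Plin2, a lipid droplet coat, -5.72. The listed genes of lipid synthesis pointed the other way: Srebf2, the master factor of sterol synthesis, had 5.96 and the desaturase gene Scd2 5.18 and 7.01. Macrophages use Cd36, Nr1h3 and Abca1 too, and the myeloid marker list (9 of 12 genes) moved in the same direction; its part was not tested. Of 18 genes of glycolysis and mTOR signalling, 5 had 11 regions on the Th2 side (7.86% of 140 merged regions) and 4 had 5 on the Treg side (3.57%). Both shares were near the background of 6.72% and 3.34%. Hk2, an inducible hexokinase, had -5.61, -6.71, -5.46 and -5.14, and Pfkfb3, an activator of glycolysis, -6.37, -6.29 and -6.82. Rptor, a subunit of mTOR complex 1, had 5.49 and 5.95, Hk1 6.23, and Myc -6.74, -4.74 and 5.76.

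Of 20 chromatin modifiers, 7 held 12 regions on the Treg side (5.45% of 220 merged regions, background 3.34%) and 6 held 8 on the Th2 side (3.64%, background 6.72%). Hdac4, a histone deacetylase, had 5 regions higher in Treg cells (4.80, 5.24, 5.53, 6.0 and 6.76) and 2 higher in Th2 cells (-6.35 and -6.03). The demethylation enzyme Tet2 had 6.65 and -5.45, and the DNA methyltransferase Dnmt3a had -4.83 and -6.17.

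Bach2 had the most regions in both directions together. It represses effector genes in T cells and had 9 regions higher in Th2 cells and 2 higher in Treg cells. Of those on the Th2 side, 6 lay within 100 kb (chr4:32200001-32300000) at the first part of the gene, between -167.0 and -129.0 kb of the nearest listed start site, with folds of -8.38, -7.44, -5.01, -6.21, -5.61 and -6.77. The regions higher in Treg cells lay at -200.0 kb (4.92) and at -81.4 kb (5.28), on either side of that cluster. Naive minus other effector cells was 6.18 and 7.84 at the 2 Treg-side regions. Of the 9 Th2-side regions, 3 were also higher in naive than in Treg cells (7.70, 6.10 and 5.07 for naive minus Treg), and 0 were listed for naive minus Th2. Foxp1, another factor that keeps T cells quiescent, was also divided by position. Regions from chr6:98977923 to chr6:99205195 had -6.80, -5.08 and -4.31, and those from chr6:99274543 to chr6:99432886 had 6.95, 4.74, 5.17 and 5.66.

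Among 1006 genes with at least 2 regions, 289 (28.7%) held both directions, and among 184 with at least 4 regions, 66 (35.9%). Rad51b, a DNA repair gene, had 6 regions higher in Treg and 4 higher in Th2 cells. Lpp, which encodes an adhesion protein, had 1 and 7, Rin2 3 and 4, Sp3, a zinc-finger factor, 4 and 2, and Mdfic 4 and 2. Ankrd55, an ankyrin repeat gene, had 6 on the Treg side, up to 8.88, and 1 on the Th2 side (-6.97). Dusp1, a phosphatase that switches off stress kinases, had 9.15 at -23.4 kb, the next largest fold of the Treg side, and -6.80 and -4.81 closer to the gene.

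Several loci held many regions in one direction. Nsmce2, a SUMO ligase gene, had 7 regions, all higher in Treg cells (4.42 to 6.61) and all within chr15:59500001-59600000. Sh3rf1, a scaffold of stress kinase signalling, also had 7 (4.88 to 7.78). On the Th2 side, 8 regions of Zfp36l2, which encodes a protein that destabilises messenger RNA, filled chr17:84100001-84200000, the window with most listed regions, with folds from -4.30 to -6.71. App, the amyloid precursor protein gene, had 10 regions inside the gene, from -4.32 to -7.83, including 1 over its start. Irf2bp2, a co-repressor, had 9 (-4.56 to -6.80) on both sides of the gene, Tbc1d1 9, Creb5 8 and the kinase gene Syk, an antigen and Fc receptor kinase of B and myeloid cells, 6. Lrrfip1 held 6 within chr1:91000001-91100000. The Fc receptor genes Fcgr2b and Fcgr4, with Fcrla and Gm39701, held the 6 of chr1:170900001-171000000. Of these genes Fcgr2b and Fcgr4 are on the longer myeloid list, and Fcrla is known as a B cell gene. The largest folds of the Th2 side on placed chromosomes were -8.96 at Lgals3, a galectin gene, -8.82 at Gse1 and -8.76 at Itpr1. A region on the unplaced sequence JH584304 had -11.32 and was assigned to no gene. Whether reads map uniquely there was not tested.

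Listed regions lay within 5 kb of 41 of 1005 microRNA hairpins of the RefSeq table (4.08%), 10 with a region higher in Treg cells (0.995%) and 31 with one higher in Th2 cells (3.08%). At the same distance, 1.49% and 3.32% of the 21263 promoter windows had such a region, so the shares of hairpins were not above those of promoters. Some hairpins share a region. The distance was chosen after the data were seen. The mature sequences shown are those of the hairpins best known in T or myeloid cells, with the seed (bases 2 to 8), through which a microRNA recognises its targets, in capitals.
miR-10a-5p: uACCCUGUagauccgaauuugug
miR-23a-3p: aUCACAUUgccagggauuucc
miR-27a-3p: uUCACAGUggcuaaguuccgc
miR-24-3p: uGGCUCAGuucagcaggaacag
miR-223-3p: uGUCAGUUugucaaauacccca
The 5 seeds differ from one another. Mir10a, a microRNA linked to Treg cells, lay 2236 bases from a region higher in Treg cells (fold 4.90, chr11:96314568-96314929). Mir23a, Mir27a, Mir24-2 and the overlapping Mir3074-2 form 1 cluster, and 1 region higher in Th2 cells (-6.76, chr8:84207849-84208058) lay 460, 614, 757 and 767 bases from them, so these 4 are 1 observation. Mir223, a microRNA of granulocytes and macrophages, lay 2745 bases from a region higher in Th2 cells (-4.40), in the direction of the myeloid markers. MicroRNA levels were not measured in these tables.

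Short motifs were counted on both strands of the 300-base promoter windows as a description of the letters there. AP-1 was searched as TGANTCA, the cyclic AMP response element as TGACGTCA, ETS as CCGGAAG and the PU.1-type ETS motif as GAGGAAG. The letters were TGTGGT for RUNX, AGATAA for the GATA motif, TTGCNNAA for C/EBP, TTCNNNGAA for STAT and TTTTCCA for NFAT. The letters CTTTGAA stood for TCF/LEF, TGTTTAC for FOX, GGGCGG for SP/KLF, CACGTG for the E-box and TATAAA for the TATA box, and NF-kB and IRF were each searched by a pattern of 10 letters. Both ETS motifs share the core GGAAG and were counted separately. In the 108 windows under a region higher in Treg cells, AP-1 was found in 6.48%, RUNX in 13.0%, GATA in 7.41% and ETS in 14.8%. In the 302 windows on the Th2 side the shares were 9.60%, 14.2%, 5.63% and 11.3%, and over all 21263 windows 6.99%, 15.0%, 9.65% and 11.6%. The PU.1-type motif was in 11.1%, 16.6% and 13.6% in the same order, C/EBP in 14.8%, 11.3% and 10.2%, NFAT in 4.63%, 9.93% and 5.97%, STAT in 3.70%, 7.62% and 7.69%, and SP/KLF in 56.5%, 55.6% and 46.2%. The TATA box was in 9.26%, 6.62% and 12.6%. A window of 1 gene can overlap that of a neighbour or of a second start site, and no sequence of regions away from promoters was analysed here.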

How the data were processed

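Per the labels' protocols, ATAC-seq libraries came from 1000 sorted cells, tagmented for 30 minutes, amplified for 16 cycles and read in pairs of 125 bases. Per the submitters' processing notes, the authors compared populations with DiffBind and used build mm9. They deposited 6 tables of regions with a log2 fold. The aligner, peak caller, normalization, threshold and pooling of replicates were not stated in the labels. A log2 scale was assumed because DiffBind reports folds so. The coordinates fit the GRCm38.p6 gene table, not mm9, and are given as GRCm38, 1-based. Titles say day 15 for all populations, while 2 descriptions carry another day, and naive cells carry a lung source label although the protocol takes them from the lymph node. The titles and the protocol were followed.

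Regions were assigned to 21887 RefSeq protein-coding genes, a table without strand or exons, within 100 kb. Start sites came from the RefSeq promoter table, which matched 2505 of 3167 genes (79.1%) and holds no entries for chromosome 18, where 149 regions lay. Merging needed an overlap of at least 1 base. Intervals are exact Clopper-Pearson. No test was run, because the tables hold called regions with 1 value each. Assignment, merging and overlap were tested on simulated regions. Named genes were a fixed core, the 15 genes with most regions and the 10 largest folds per direction, the 10 genes with most regions among those in both directions, members of 25 gene lists with 2 or more regions, at most 4 further members per direction and list, and the genes of the 5 densest windows of 100 kb. Members, lists and this rule were chosen with earlier results of these data known. Further genes were named outside the rule, among them Stim2, Nfatc2, Plin2, Ccr9, Cxcr4, Cd68, Cd14, Cebpa, Fcgr3 and Fcer1g. Some listed genes are not reported here by name. One further list, of myeloid genes, was added after the data were examined. Python 3.11.15, pandas 2.3.3, numpy 2.4.6, scipy 1.17.1 and matplotlib 3.10.9 were used.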

Additional observations from a re-analysis of the deposited data

How the results depend on the processing

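No paired analysis was possible because the tables carry no replicate values, and for the same reason no replicate could be left out. Keeping only regions at or above the median absolute fold (5.52) left 914 higher in Treg and 1737 higher in Th2 cells, and 100 genes with both directions in place of 289. With genes assigned within 10 kb, 183 genes had both directions. Measured from the nearest edge of the region, 11.2% and 12.8% lay within 1 kb of a gene end in place of 9.39% and 11.4%. Merging members within 1 kb left 1694 and 3356 regions, and leaving out X, Y and unplaced sequences 1737 and 3485, all within 1.5 times the counts in the text. With the 3 tables that hold other effector cells left out, the background of merged regions was 10.6% higher in Treg and 21.3% higher in Th2 cells, a denominator on which the group shares were not recomputed. Of 52 counts of regions per list and direction, 32 moved by over 1.5 times at or above the median fold and 16 within 10 kb. Within 10 kb the lists so moved held, on the Th2 side, 4 regions for Treg identity, 1 for the cytokine locus, 3 for Th2 effectors, 7 for Th2 factors, 4 for AP-1 and IRF, 5 for NF-kB, 6 for cytokine receptors, 3 for the tumour necrosis factor superfamily, 2 for homing, 6 for antigen receptor signalling and 4 for chromatin modifiers. On the Treg side they held 1 for NF-kB, 9 for cytokine receptors, 1 for transforming growth factor beta, 2 for lipid handling and 3 for genes of the gates. The read depth behind the folds is unknown.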
